A study of Arabidopsis thaliana with 14 samples.

Results

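The genes described here gave strong and nearly equal signal in all 6 compartments of the young Arabidopsis thaliana seed. A probe set is the group of short probes that reads 1 transcript, or sometimes several, on an Affymetrix ATH1 array. A member had a lowest compartment mean of at least 1000 signal units and a highest of at most 1.5 times the lowest. Each mean was taken over 2 arrays, and whole seeds took no part in the choice. Of 22746 probe sets that were not controls, 28 met the rule (0.123%), after 112 probe sets annotated to plastid or mitochondrial genes were left out. Of these 28, 18 were annotated to 1 gene and 10 to none, so for those 10 an organelle origin could not be checked. In all, 1189 probe sets (5.23%) reached 1000 in every compartment, and the members were 2.35% of them.

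The study measured RNA from seeds at the pre-globular stage, whose embryo propers had 2 to 8 cells. The embryo proper, the micropylar, peripheral and chalazal endosperm, and the general and chalazal seed coat were cut from sections by laser capture microdissection, and whole seeds from such sections were the seventh group. All 7 groups came from plants of the Ws-0 accession, 38 to 46 days old and grown at 20 °C, with siliques of 1.0 to 1.1 cm. The labels name no treatment or transgene, and each array began from 2 to 5 ng of RNA. The peripheral endosperm is called cellularized endosperm in its source label. Each group had 2 arrays. The titles call them biological replicates, and nothing in the labels ties an array to particular plants. A p-value below sets a difference against the spread between these samples within groups. That spread was estimated over all 7 groups and in part from other probe sets.

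The seed grows from a double fertilisation that yields the embryo and the endosperm, the tissue that feeds it, and both lie inside a seed coat of maternal origin. Genes that most cells use, often called housekeeping genes, encode machinery such as the mitochondrial respiratory chain and the spliceosome. In the respiratory chain, complex I passes electrons from NADH to ubiquinone, cytochrome c carries them on from complex III, and cytochrome c oxidase hands them to oxygen. Genes held to be even are also used as references for measuring other genes.

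Every array had been scaled to the same 2% trimmed mean (500.04 to 500.07 units), so an even value is an even share of an array's signal and not an even amount per cell. Fewer cells of a type and less RNA per cell cannot be told apart in such samples. Array medians lay between 110.5 and 179. All 8 of 8 marker genes checked (BBM, AGL62, MPC, IKU1, BAN, DFR, INO and RR22) had their highest compartment mean in the labelled tissue. The number of arrays, 2 per group, limits the precision of every value below. Roles given for the named genes are general knowledge of these loci, since 16 of the 18 carry only a locus tag in the annotation used.

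Among the 18 named members, 7 are nuclear genes for parts of the respiratory chain: 4 subunits of complex I, 2 of cytochrome c oxidase, and cytochrome c itself. Another 3 belong to pre-mRNA splicing. The other 8 include CUL4, a cullin that holds ubiquitin ligases together, a linker histone and an enzyme of isoprenoid synthesis. Since the ratio between compartments chose the members, their evenness is given as a description and was not tested.

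AT1G76200, a small subunit of complex I, had the lowest ratio of all the members. Its signal was 19340.1 and 19916 on the embryo arrays, 24897 and 18466 on the micropylar pair, 16624 and 20649.5 on the peripheral pair, 16382 and 20425 on the chalazal endosperm pair, 21776 and 22678 on the general coat pair, 20788 and 19370.2 on the chalazal coat pair, and 20906 and 21516 on the whole seed pair. The compartment means ran from 18403 in the chalazal endosperm to 22227 in the general seed coat, a ratio of 1.21. The general coat pair lay above both arrays of every other compartment except the micropylar endosperm. The micropylar arrays were the furthest apart of any pair, with a mean of 21681 ± 4548 (SD, n = 2). Over the 12 single compartment arrays the highest was 1.52 times the lowest.

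AT5G47890 is another subunit of complex I. Its signal was 18211 and 13791 on the embryo arrays, 11959 and 18928 on the micropylar pair, 18458 and 16343 on the peripheral pair, 22023 and 16619.7 on the chalazal endosperm pair, 19954 and 14259 on the general coat pair, 15056 and 16734 on the chalazal coat pair, and 15669 and 16741 on the whole seed pair. Here too the spread lay inside compartments: the micropylar arrays bracketed most of the other arrays. The lowest compartment mean was 15444 ± 4928 in the micropylar endosperm and the highest 19321 ± 3821 in the chalazal endosperm (SD, n = 2).

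The other 2 complex I members were AT5G47570 and AT2G02050. AT5G47570 gave 5767 and 4018 on the embryo arrays, 5679 and 3997 on the micropylar pair, 5214 and 6440.1 on the peripheral pair, 5797 and 5682 on the chalazal endosperm pair, 6951 and 5513 on the general coat pair, 6718 and 5364 on the chalazal coat pair, and 3256 and 5710.3 on the whole seed pair. Its means ran from 4838 in the micropylar endosperm to 6232 in the general seed coat (ratio 1.29), and the embryo and micropylar pairs each held a low and a middling array. In whole seeds 1 array was below all 12 compartment arrays and the other was among them. AT2G02050, an outer subunit of the complex, gave 2008 and 1937 on the embryo arrays, 1898 and 2804 on the micropylar pair, 2106 and 2820.4 on the peripheral pair, 3721 and 1657 on the chalazal endosperm pair, 2171 and 2232 on the general coat pair, 2914 and 1711 on the chalazal coat pair, and 1799.5 and 1288 on the whole seed pair. Its ratio was 1.36, and the chalazal endosperm pair held both the highest and the lowest of its 12 compartment arrays, 2.25-fold apart.

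Cytochrome c was read by CYTC-1. Its signal was 8197 and 6961 on the embryo arrays, 8733 and 7152 on the micropylar pair, 8265 and 7038 on the peripheral pair, 6166 and 6932 on the chalazal endosperm pair, 5634 and 5660.4 on the general coat pair, 5559 and 5711 on the chalazal coat pair, and 5098 and 3880.1 on the whole seed pair. The embryo, micropylar and peripheral arrays all lay above the 4 seed coat arrays, with both chalazal endosperm arrays in between. Within the compartments CYTC-1 had the closest replicates of the members, at most 1.22-fold apart, and its ratio was 1.41. Its whole seed arrays were further apart than any of its compartment pairs. Its SD between compartment means was 0.22 on the log2 scale against 0.14 between replicates.

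The members of cytochrome c oxidase were AT4G37830, its small subunit 6a, and AT1G80230, a copy of its subunit 5b. AT4G37830 gave 3828 and 3705 on the embryo arrays, 4664 and 3888 on the micropylar pair, 5282 and 4469.6 on the peripheral pair, 4284 and 6540.4 on the chalazal endosperm pair, 4642 and 5029 on the general coat pair, 3824 and 4530.0 on the chalazal coat pair, and 6083 and 5289.9 on the whole seed pair. The chalazal endosperm pair was the widest apart and the embryo pair the closest, with the lowest mean (ratio 1.44). AT1G80230 gave 1330.4 and 1456 on the embryo arrays, 1936 and 1954 on the micropylar pair, 1527 and 2003 on the peripheral pair, 1909 and 1761 on the chalazal endosperm pair, 734 and 1913 on the general coat pair, 1115 and 1990.4 on the chalazal coat pair, and 1685 and 1104 on the whole seed pair. Its mean was lowest in the general seed coat, 1324 ± 833 (SD, n = 2), where 1 array fell under the floor of 1000 and the other was above most of the others, a gap of 2.61-fold that was the widest of any member.

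**Figure D1:**
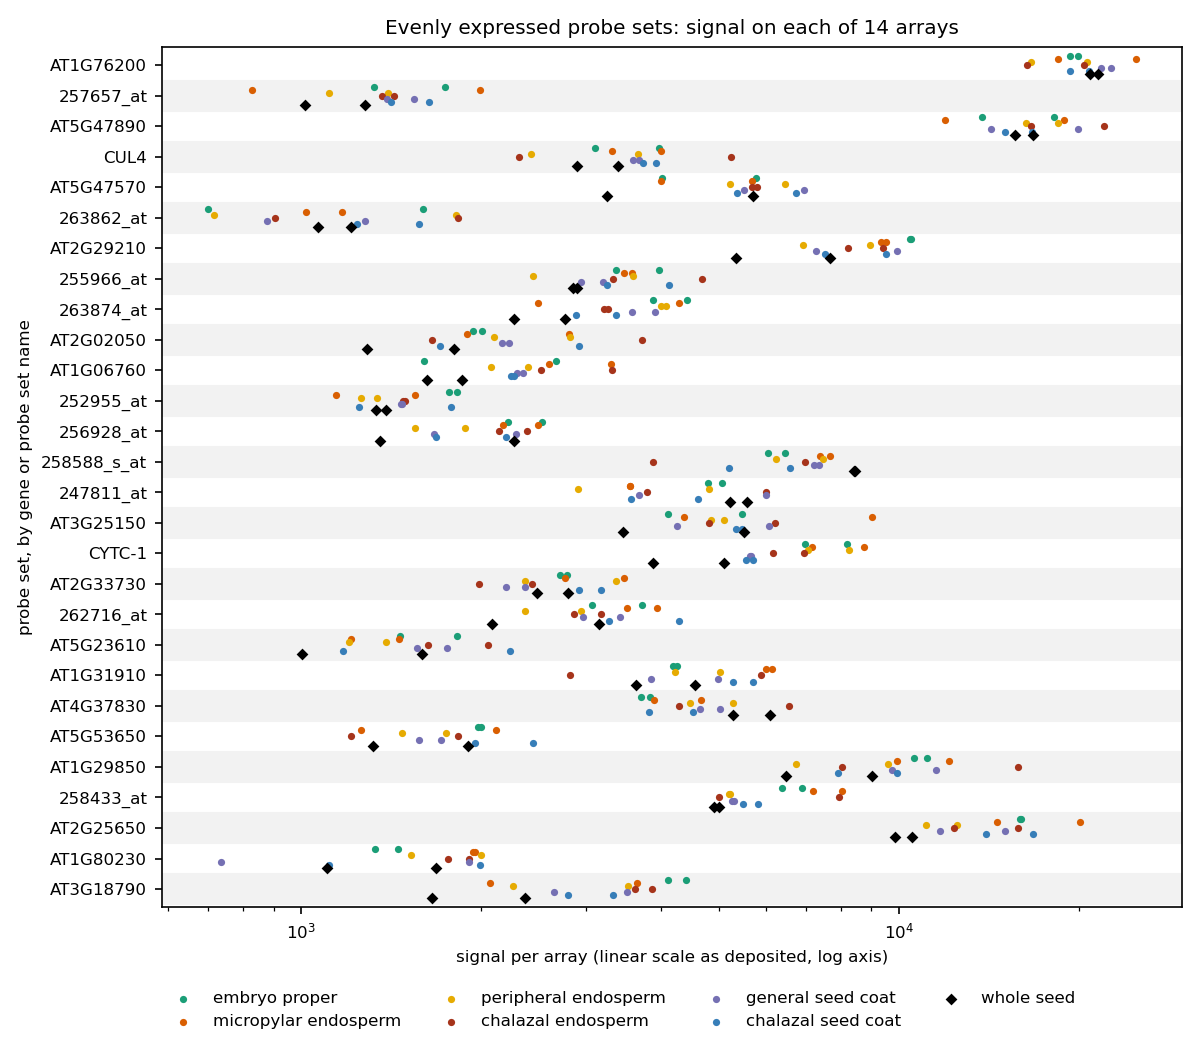
Signal of each of the 28 members on all 14 arrays, on a log axis, with points coloured by compartment and whole seed arrays as black diamonds. No member has its 12 compartment arrays within 1.5-fold of each other, and all 28 have them within 3-fold.

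The splicing members were AT2G29210, AT2G33730 and AT3G18790. AT2G29210, a PWI-domain splicing factor, gave 10443 and 10494 on the embryo arrays, 9517 and 9339 on the micropylar pair, 8961 and 6918 on the peripheral pair, 8215 and 9401 on the chalazal endosperm pair, 9915 and 7276 on the general coat pair, 9509 and 7536 on the chalazal coat pair, and 5339 and 7683 on the whole seed pair. The embryo pair was the brightest and the closest, and 1 whole seed array was below every compartment array. AT2G33730, a DEAD-box RNA helicase like yeast PRP28, had means from 2212 in the chalazal endosperm to 3119 in the micropylar endosperm (ratio 1.41). AT3G18790, like yeast ISY1, gave 4112 and 4400.2 on the embryo arrays, 3649.7 and 2069 on the micropylar pair, 2262 and 3524 on the peripheral pair, 3869 and 3613 on the chalazal endosperm pair, 2654 and 3509 on the general coat pair, 3320.0 and 2796 on the chalazal coat pair, and 1655 and 2367 on the whole seed pair. It lay closest to the limit on evenness, with a ratio of 1.49. Its micropylar and peripheral pairs each held 1 low array.

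CUL4 gave 3976 and 3103 on the embryo arrays, 4003 and 3309.5 on the micropylar pair, 2422 and 3658 on the peripheral pair, 2319.7 and 5245 on the chalazal endosperm pair, 3596 and 3675 on the general coat pair, 3737 and 3932 on the chalazal coat pair, and 2896 and 3386 on the whole seed pair. Its chalazal endosperm pair held the lowest and the highest of the 12 arrays, 2.26-fold apart, although its compartment means had a ratio of 1.26. AT1G06760, which encodes a linker histone H1, gave 1607 and 2669 on the embryo arrays, 2595 and 3306 on the micropylar pair, 2079.7 and 2401 on the peripheral pair, 3318 and 2516 on the chalazal endosperm pair, 2294 and 2354 on the general coat pair, 2268 and 2244 on the chalazal coat pair, and 1859 and 1624 on the whole seed pair. Its embryo pair held the lowest array and one from the upper part of the range, and both seed coat pairs were close together (ratio 1.38). AT2G25650, a DNA-binding protein related to GeBP and storekeeper, had means from 11817 in the peripheral endosperm to 17343 in the micropylar endosperm (ratio 1.47).

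AT3G25150, an RNA-binding protein with an NTF2 domain, had means from 4789 in the embryo proper to 6694 in the micropylar endosperm (ratio 1.40). The micropylar mean was 6694 ± 3294 (SD, n = 2), the average of an array near the other compartments and 1 far above them. AT1G31910, phosphomevalonate kinase of the mevalonate pathway, ran from 4218 in the embryo proper to 6059.5 in the micropylar endosperm (ratio 1.44). AT1G29850, a homologue of the human protein PDCD5, ran from 8172 in the peripheral endosperm to 11928 in the chalazal endosperm (ratio 1.46). AT5G53650 and AT5G23610, to which no role is given here, had ratios of 1.45 and 1.43. The 10 probe sets without a gene were 257657_at, 263862_at, 255966_at, 263874_at, 252955_at, 256928_at, 258588_s_at, 247811_at, 262716_at and 258433_at, with ratios from 1.22 to 1.46.

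Just inside the limit of 1.5 were AT3G18790 (1.49), AT1G80230 (1.47) and AT2G25650 (1.47). Just outside were 248234_at and 249374_at (ratios of 1.504 and 1.505) and AT2G04520 (1.51). At the floor of 1000, the members closest to it had lowest means of 1078 (263862_at), 1257 (257657_at) and 1294 (AT5G23610), and the nearest even probe sets below it had 884 (248304_at), 865.0 (AT3G26850) and 855 (259712_at). The members' ratios had a median of 1.39, against 3.04 over the 1161 bright probe sets that were not even enough and 7.79 over all 22634 probe sets not annotated to an organelle. The plot of lowest mean against ratio shows the members at the lower edge of a continuous cloud.

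**Figure D2:**
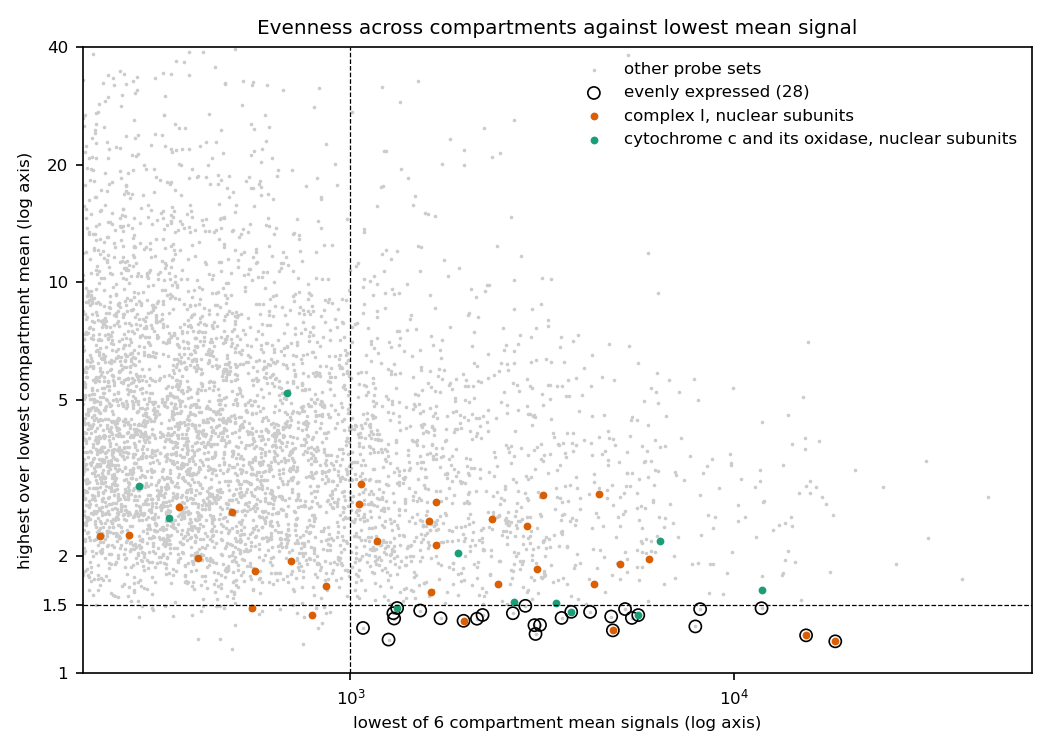
Ratio of highest to lowest compartment mean against the lowest compartment mean, both on log axes, for each probe set, with the limits of 1.5 and 1000 drawn as dashed lines and the 28 members circled. Genes of complex I are orange and those of cytochrome c and its oxidase green, and the axes leave out dimmer and more uneven probe sets. The members occupy the corner set by the limits, and no gap separates them from their neighbours.

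For the members, the spread between replicates was set beside the spread between compartments, which the rule itself keeps small. The SD of log2 signal between the 6 compartment means ran from 0.11 to 0.23 (median 0.19), and the SD between replicates from 0.14 to 0.63 (median 0.27). In 24 of the 28 the first did not exceed the second, and the 4 exceptions were CYTC-1, AT2G33730, 262716_at and 258433_at. A mean of 2 arrays varies less than a single array, and on the scale of such means (the replicate SD over the square root of 2) the compartment SD did not exceed it in 19 members and did in 9. The replicate SD itself had a median of 0.30 among the bright but uneven, close to that of the members. The largest replicate gaps after AT1G80230 were 2.54-fold for 263862_at in the peripheral endosperm and 2.41-fold for 257657_at in the micropylar endosperm. Single arrays of a member spanned 1.52-fold to 2.73-fold, and 16 of the 28 stayed within 2-fold. In 25 members every one of the 12 arrays reached 1000, and the exceptions were 257657_at, 263862_at and AT1G80230.

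**Figure D3:**
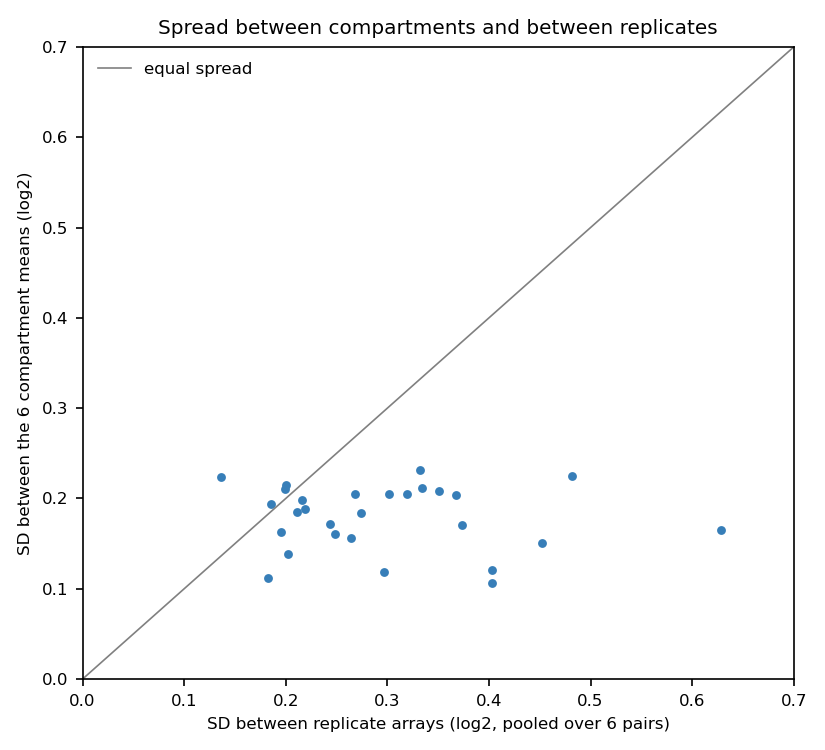
SD of log2 signal between the 6 compartment means against the SD between replicates for the 28 members, each a point, with the line of equal spread. Of the members, 24 lie on or below the line.

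Within their narrow range, the members differed in which compartment was highest. The micropylar endosperm had the highest mean for 9 members, the embryo proper for 7, the chalazal endosperm for 6, the chalazal seed coat for 4, the general seed coat for 2 and the peripheral endosperm for 0. Over all 1189 bright probe sets the embryo proper was highest in 33.3%, the chalazal endosperm in 23.0% and the micropylar endosperm in 17.5%. The lowest mean was in the peripheral endosperm in 11 members, against 13.5% of the bright probe sets. The chalazal seed coat was lowest in 2 members and in 27.1% of the bright probe sets. These orders are a description only, since the differences between a member's compartments were limited by the rule.

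Reading the 2 replicate numbers apart gave a measure of evenness in arrays that had not chosen the probe set. The rule applied to the 6 arrays of replicate 1 alone took 24 probe sets, 10 of them members, and to those of replicate 2 alone 22, 9 of them members. Only 262716_at was taken both times, 4.17% of the first set and 4.55% of the second. The 24 chosen on replicate 1 had a median ratio of 2.00 on replicate 2 (range 1.498 to 5.54), and 12 of them (50%) stayed within 2-fold. Of the 1122 probe sets bright on replicate 1, 12.3% stayed within 2-fold on replicate 2, with a median ratio of 3.45. The 22 chosen on replicate 2 had a median of 2.04 on replicate 1 (1.48 to 5.41), and 10 (45.5%) stayed within 2-fold, against 12.8% and a median of 3.26 over 1088 bright probe sets. In the unused arrays the chosen probe sets had lower median ratios than all bright ones, the chosen included. There 1 of the 24 and 1 of the 22 kept to the limit of 1.5. Most of the chosen were not members, so these values do not describe the members as a set. Genes of complex I, cytochrome c and its oxidase, a list drawn up from the members, were 4 of the 24 (2 of them members) and 5 of the 22 (4 of them members). They were 25 of the 1122 and 26 of the 1088 bright probe sets. Since the list came from the members, these shares are a description and lend the members no support.

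**Figure D4:**
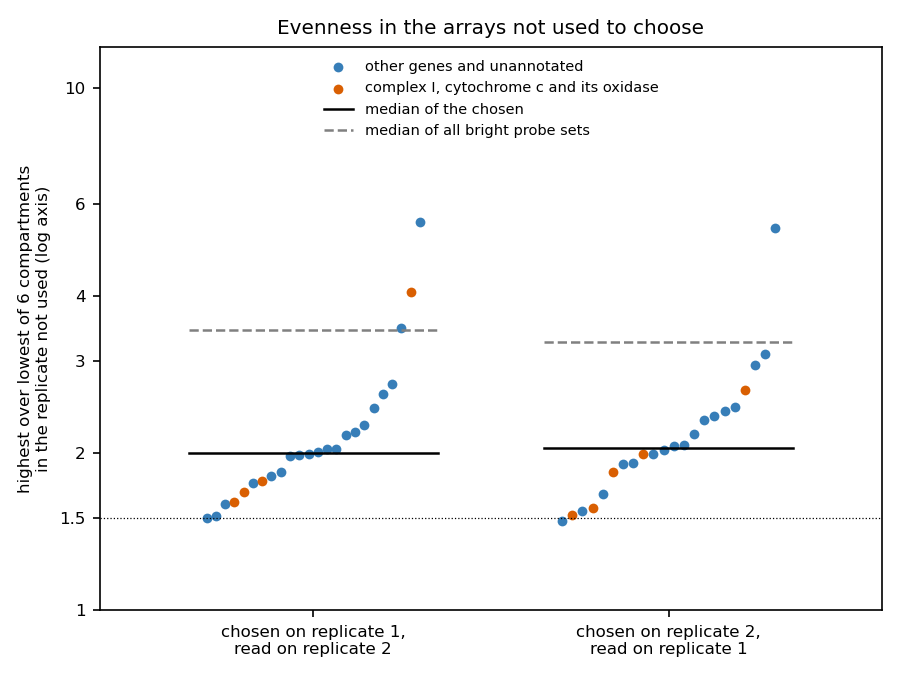
Ratio of highest to lowest of the 6 compartments in the replicate not used to choose, on a log axis, for probe sets chosen on replicate 1 (24) and replicate 2 (22), with medians of 2.00 and 2.04 as bars. Medians over all bright probe sets, 3.45 and 3.26, are dashed, and genes of complex I, cytochrome c and its oxidase are orange.

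Genes of complex I and of cytochrome c and its oxidase, the parts of the respiratory chain that held members, were then followed on lists. These were drawn up after the members were known, so they lend the members no support. Other complexes of the chain were not listed there. Of 46 listed nuclear genes of complex I, 33 had a probe set, 20 were bright in every compartment, 4 were members, and 10 of the 20 stayed within 2-fold. The 16 bright complex I genes that were not members had ratios from 1.62 to 3.05. Of 16 listed genes of cytochrome c and its oxidase, 12 had a probe set, 8 were bright, 3 were members, and 6 of the 8 stayed within 2-fold. Leaving out the 7 members, 9 of 21 bright probe sets on these lists (42.9%) stayed within 2-fold. Over all bright probe sets that were not members, 183 of 1161 (15.8%) did. Among all 28 bright respiratory probe sets, the chalazal endosperm was highest for 13, the micropylar endosperm for 8, the general seed coat for 6, the peripheral endosperm for 1, and the embryo proper and chalazal seed coat for 0.

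Relatives of the members on these lists were measured too. AT3G15640, the other copy of oxidase subunit 5b, ran from 684 in the chalazal endosperm to 3565 in the micropylar endosperm, a ratio of 5.21 against 1.47 for AT1G80230. AT2G30620, another linker histone, ran from 393 in the micropylar endosperm to 1073 in the general seed coat, a ratio of 2.73 against 1.38 for AT1G06760. CYTC-2, the second cytochrome c gene, had compartment means of 105 to 332, near the array medians, and no ratio is given for it. The linker histone HIS1-3 and the cullin AT1G43140 did not pass the filter on dim probe sets, and no ratio is given for them. On a list of 28 splicing genes, 15 had a probe set, 7 were bright and 3 were members, with a median ratio of 2.18 over the 15.

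Of the genes in common use as references in Arabidopsis, none that had a probe set by name was a member. Of 30 listed, 11 had a probe set of their own by name. Whether a member without a gene reads one of the others could not be checked. Of the 11, 2 were bright in every compartment, and the median ratio was 2.99, with dim probe sets included. AT5G46630, a clathrin adaptor subunit, came closest at 1.54, followed by AT4G34270, a TIP41-like gene, at 1.75. GAPC2, a glycolytic dehydrogenase, had a ratio of 4.97, and PEX4, a ubiquitin-conjugating enzyme, one of 6.43. For TUB6, a tubulin, no ratio is given, since its chalazal endosperm mean of 73.3 ± 77.0 (SD, n = 2) was below the array medians. The 16 keyword lists of processes took in 216 probe sets, of which 24 were bright and 1 was a member, CYTC-1, in the list of mitochondrial respiration (7 probe sets, 4 bright). These lists matched symbols and synonyms only, and so missed the 3 splicing members and the linker histone AT1G06760. On them, bright probe sets but no member were found for vesicle trafficking (6 of 29), chaperones (3 of 13) and histones (2 of 8). This was also so for splicing and RNA-binding proteins (2 of 13) and glycolysis (2 of 3). The same held, with 1 bright probe set each, for translation factors (of 1), the proteasome (of 1), ubiquitin (of 14), actin and tubulin (of 11) and transcription factors (of 97). The matches for cytosolic ribosomal proteins (1 probe set), the vacuolar ATPase (5), aquaporins (1), redox proteins (12) and 14-3-3 proteins (0) held no bright one. Unmatched genes of a process were not counted, so a list without a bright probe set or member does not describe the whole process.

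Of the named members, 6 lie on chromosome 1, 4 on chromosome 2, 2 on chromosome 3, 1 on chromosome 4 and 5 on chromosome 5. These chromosomes hold 25.7%, 16.4%, 20.5%, 14.6% and 22.4% of the named nuclear probe sets. Of the genes directly adjacent to a member in the TAIR10.1 gene order, 13 had a probe set. Their lowest compartment means were 3.81 to 162, and 0 of the 13 were bright in every compartment, beside 5.23% of all probe sets.

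Whole seeds, which the rule had not used, were compared with the mean of the 6 compartments in limma on log2(signal + 35.9). A difference below is on that scale, and a call needed an adjusted p under 0.05 and at least 2-fold. Of 17336 probe sets tested, 1575 (9.09%) were called higher and 285 (1.64%) lower in whole seeds. Of the calls, 84.7% were higher, a split that moved to 73.9% after quantile normalisation and to 52.8% when arrays were rescaled to a common median. All 28 members passed the filter on dim probe sets, and 0 were called higher and 0 lower. At an unadjusted p under 0.05 there were 5 members, against 25.1% of all tested. The compartment side of this contrast chose the members, and whole seed sections take in the same compartments. A small difference was therefore likely beforehand for an even probe set. The members' counts, their intervals and the direction of their differences are given as a description. Among the bright but uneven probe sets 24 were called higher and 60 lower.

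For 25 of the 28 members the 95% interval of the difference lay wholly within 2-fold, which held for 14.0% of all tested and for 653 of the 1161 bright but uneven (56.2%). The count of 25 was 6 with arrays at a common median, 12 without the variance trend, 12 without whole seed replicate 1 and 15 without whole seed replicate 2. The intervals' width had a median of 0.99 for members, 1.05 for the bright but uneven and 1.90 for all tested. For AT1G76200 the difference was 0.09 (SE 0.15, 95% interval -0.22 to 0.40, limma adjusted p = 0.783), and both whole seed arrays lay inside its compartment range. It was 0.52 (adjusted p = 0.0289) after quantile normalisation and -0.29 at a common median, and its adjusted p ran from 0.0289 to 0.920 over 21 other fits. AT4G37830 was among the highest, with 0.33 (SE 0.21, 95% interval -0.11 to 0.77, limma adjusted p = 0.357), and ran from -0.04 to 0.66 over the same fits. The highest of all, 258588_s_at, had 0.39 (SE 0.21, 95% interval -0.04 to 0.82, limma adjusted p = 0.252), and ran from 0.01 to 0.77.

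The widest difference was that of AT3G18790, -0.70 (SE 0.26, 95% interval -1.24 to -0.16, limma adjusted p = 0.0878), and its interval reached past 2-fold. The same was true of AT2G02050, -0.56 (SE 0.30, 95% interval -1.19 to 0.07, limma adjusted p = 0.261), and AT1G06760, -0.48 (SE 0.25, 95% interval -1.01 to 0.05, limma adjusted p = 0.258). CYTC-1 alone passed the adjusted p, with -0.60 (SE 0.19, 95% interval -0.99 to -0.20, limma adjusted p = 0.0437), but its change was under 2-fold and it was not called. Its whole seed arrays, 5098 and 3880.1, were below all 12 compartment arrays, and its adjusted p ran from 0.00320 to 0.444 over 21 other fits. AT2G25650 also had both whole seed arrays, 10517 and 9849, below all 12, with -0.51 (SE 0.17, 95% interval -0.86 to -0.16, limma adjusted p = 0.0544). The third such probe set was 258433_at. AT2G29210 had -0.47 (SE 0.19, 95% interval -0.87 to -0.07, limma adjusted p = 0.124), and its 2 whole seed arrays, 5339 and 7683, were further apart than any of its compartment pairs. Among the lists above, 0 of 33 complex I, 0 of 12 cytochrome c and oxidase and 0 of 15 splicing probe sets were called.

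The members' differences had a median of -0.27 (range -0.70 to 0.39), against 0.09 over all tested and -0.30 over the bright but uneven. Below 0 were 24 of the 28, 73.0% of the bright but uneven and 44.95% of all tested. The whole seed mean was below every compartment mean in 15 members, inside their range in 10 and above it in 3, and below in 15.7% of the bright but uneven. Rescaling moved these levels for all probe sets at once: with arrays at a common median the median over all tested was -0.22 and that of the members -0.64, so relative to all tested the members stood at -0.42, against -0.36 before. After quantile normalisation the medians were -0.09 and -0.10, and the members stood at -0.02 relative to all tested.

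**Figure D5:**
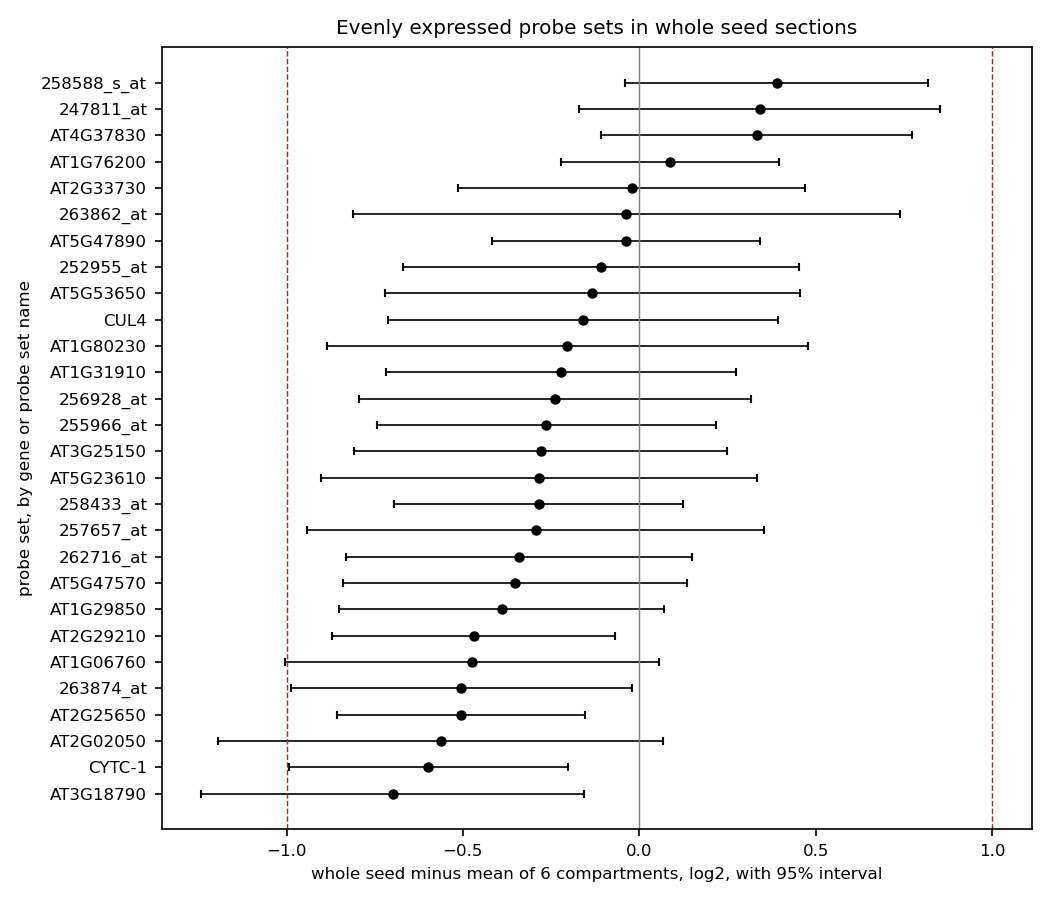
Whole seed minus the mean of the 6 compartments on the log2(signal + 35.9) scale for each of the 28 members, with 95% limma intervals and lines at a 2-fold difference either way. As scaled by the authors, the intervals of 25 members lie between the lines (6 with arrays at a common median), and those of AT3G18790, AT2G02050 and AT1G06760 cross the lower one.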

How the data were processed

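RNA of 7 groups, 2 arrays each, was measured on ATH1 arrays. The deposited values are linear intensity, 1 per probe set and array, which the authors made with GCOS, per the submitters' processing notes (its version is not given in the sources used here) and scaled per array to a trimmed mean near 500.04, as the values show. Depth has no counterpart here; the number of arrays limits precision.

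From the 22810 probe sets, 64 controls were left out. Compartment means of linear signal and their ratios were computed with Python 3.11.15, pandas 2.3.3 and numpy 2.4.6, and figures with matplotlib 3.10.9. Gene names came from the platform annotation (13513 probe sets with 1 symbol, 503 with several, 8730 with none), updated through the TAIR10.1 RefSeq table for 13436. Organelle genes were found by chromosome or by symbol. For whole seeds against the mean of the compartments, log2(intensity + 35.9) was fitted over all 14 deposited arrays with limma 3.58.1 in R 4.3.3 (lmFit, eBayes with trend, 7 residual degrees of freedom, Benjamini-Hochberg adjustment). The 25th percentile, taken over the whole matrix, served as the pseudocount. A probe set was tested when at least 1 group had all its arrays above their own 40th percentiles, which left 17336. The fit was tested on simulated data.

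All members with 1 gene were named, with the 3 probe sets nearest outside each limit, relatives of members and reference genes. The members and lists were chosen with earlier results of these data known; the lists of complex I, cytochrome c and its oxidase, splicing genes, linker histones and cullins were added after the members were known. The 16 keyword lists matched symbols and synonyms only. Alternatives were other floors, ratio limits, means, scalings, pseudocounts and filters, a replicate block, and leaving out each array.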

Additional observations from a re-analysis of the deposited data

How the results depend on the processing

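The number of members depended on the limits: it was 44 with a floor of 500, 20 with a floor of 2000, 2 with a tighter limit on the ratio and 211 with a ratio of 2. It was 31 with geometric means, 32 after quantile normalisation and 37 with arrays at a common median, of which 26, 15 and 18 were the members named here. Without the micropylar and chalazal endosperm, an alternative chosen after seeing the data, 187 met the rule, and with organelle probe sets kept 30 did. Leaving out single arrays gave 21 to 32, with 19 to 27 members kept; 1 member, AT1G76200, was kept in all 12 cases. Against whole seeds, calls over all probe sets numbered 1860 and fell to 1219 with a pseudocount of 1. Without 1 array they ranged from 615 to 2171, with 615 without whole seed replicate 1 and 626 without replicate 2. Members called higher were 0 in every alternative run; members called lower were 0, except 1 (AT3G18790, -1.07) with arrays at a common median and 2 (251845_at and AT4G12240) among the 211. The members' median difference was -0.64 with arrays at a common median, -0.10 after quantile normalisation and -0.33 to -0.13 when 1 array was left out. Intervals within 2-fold fell from 25 to 6 at a common median, to 12 without the variance trend, and to 12 to 26 without 1 array (12 without whole seed replicate 1, 15 without replicate 2). A replicate block gave 1845 calls and 0 among the members. Replicate numbers did not pair the samples: over 21 pairs of groups the correlation of deviations was -0.03 to 0.04. Of 588 values of members over these fits, 26 in 15 members changed sign, none of them a called value, since no member was called to begin with. The causes were not tested.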

Other observations

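The probe sets 263509_s_at and 265228_s_at also met both limits but were left out, because each is annotated to a mitochondrial gene together with a nuclear locus. The first, annotated to cox3 (a subunit of cytochrome c oxidase), had compartment means from 10207 to 13605 and a ratio of 1.33. The second, annotated to atp1 (a subunit of ATP synthase), had means from 21798 to 27805 and a ratio of 1.28. The mitochondrial and nuclear copies cannot be told apart on these probe sets.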
